A study of Mus musculus with 6 samples.

Results

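The 9 cytokine genes that Th17 cells and their close relatives use as effector products, *Il17a*, *Il17f*, *Il21*, *Il22*, *Il9*, *Il10*, *Csf2*, *Il24* and *Il3*, were examined in Th17 cells with and without the RORγt mutation N275D. They were taken by gene symbol from the 16244 genes of the deposited table, and all 9 were present. The comparison asks which effector cytokine transcripts differed between the genotypes under inflammatory culture conditions. RNA-seq libraries were analysed for 3 WT samples and 3 samples carrying N275D (labelled Mut), all labelled as Th17 cells with spleen as the tissue. Naive CD4+ T cells of both genotypes were activated with anti-CD3 and anti-CD28 and cultured for 3 days under pathogenic Th17 conditions before RNA isolation. The series' own description names IL-6, IL-1β and IL-23 as the polarizing cytokines, whereas the methods build the pathogenic condition on TGF-β, IL-6 and antibodies to IL-4 and IFN-γ, with IL-23 and IL-1β added. Mice were 6 to 12 weeks old unless otherwise stated, and both sexes were used. The knockin mice, on a C57BL/6 background, were a gift from another institution. Wild-type mice were purchased as C57BL/6, and the paper's list of resources names them C57BL/6NJ. Which wild-type mice, purchased or littermates, gave the RNA-seq cells is not given in the sources used here. A difference in the origin or substrain of the donors therefore cannot be told apart from the mutation. Whether the mutant libraries were homozygous, and whether replicates came from separate mice or cultures, is not given in the labels, so p-values measure the spread between these samples, which may be technical.

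Th17 cells are CD4+ T cells that depend on the nuclear receptor RORγt. Their hallmark products IL-17A and IL-17F act as homodimers or as a heterodimer on epithelial and stromal cells, where they induce chemokines and antimicrobial peptides that draw in neutrophils. IL-22 strengthens epithelial barriers, IL-21 acts back on T and B cells, and GM-CSF, the product of *Csf2*, activates myeloid cells and is tied to the pathogenic form of the lineage. IL-10, a suppressive cytokine, is made by the less inflammatory form.

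The libraries held between 17659035 and 18510878 reads on genes, recovered from the factor by which each library had been scaled. WT replicate 3 lay farthest from its group, with a root mean square deviation of 0.155 on the log2 scale against 0.117 to 0.145 in the other 5 libraries. The 10 defining CD4+ T and Th17 markers had means of at least 507 normalized reads each, and their sum was 25764 to 26119 in WT and 25619 to 25933 in N275D libraries. Markers of other cell types were also present. The sum of 8 B cell markers was 1140 to 1178 normalized reads in WT and 1742 to 1808 in N275D libraries. *Ebf1* made up most of it, with a mean of 1232, and *Ms4a1* was at 0 in at least 1 library. The sum of 7 CD8 T and NK cell markers was 308 to 333 in WT and 468 to 529 in N275D libraries, and that of 9 mast cell and basophil markers was 57.0 to 70.6 and 122 to 137. *Mcpt4*, *Cpa3*, *Fcer1a*, *Ms4a2* and *Prss34* were each at 0 in at least 1 library. The sum of 9 myeloid markers was 95.9 to 111 and 109 to 137, with *Csf1r*, *S100a8* and *S100a9* at 0 in at least 1 library, and the 3 of 7 γδ T cell markers that were matched summed to 29.3 to 46.2 and 47.9 to 57.3. The 6 regulatory T cell markers, mostly *Il2ra*, summed to 37470 to 38858 in WT and 42227 to 43803 in N275D libraries. The part of any of these cells in the cytokine results below was not tested.

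Promoter sequences from RefSeq (GRCm38.p6) were matched for 7 of the 9 genes. *Il10* and *Il24* were not matched, so their promoters were not searched. In the 250 bases before each start, *Il17a* and *Il17f* differed from the other 5 genes searched in one respect. Both held the letters AGGTCA, the core that ROR receptors bind, or the reverse complement TGACCT. Each window ends just before the 1 start that the RefSeq promoter table gives for a gene. For 5 of the 7 genes it is the outer end of the gene span given below, for *Il17f* it is 20784270, which lies 1004 bases inside that span, and for *Il22* it is 118204964, which lies 380 bases inside. The core began 120 bases before this start in *Il17a*, on the opposite strand, and 58 bases before it in *Il17f*. Of all 32851 promoter windows of this length, 14% held this core on either strand. These promoters are shown because *Il17a* and *Il17f* are the classical RORγt target genes, with the ROR core and the TATA box (TATAAA, read on the gene's strand) in capitals and each sequence written 5′ to 3′ on the strand of its gene. The *Il17a* window is chr1:20730655-20730904 on the plus strand and the *Il17f* window is chr1:20784271-20784520 on the minus strand.
Il17a: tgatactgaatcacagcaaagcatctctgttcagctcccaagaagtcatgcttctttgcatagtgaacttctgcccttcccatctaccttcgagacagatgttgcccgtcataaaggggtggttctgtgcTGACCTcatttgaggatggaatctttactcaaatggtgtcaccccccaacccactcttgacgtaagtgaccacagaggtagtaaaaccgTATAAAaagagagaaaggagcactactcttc
Il17f: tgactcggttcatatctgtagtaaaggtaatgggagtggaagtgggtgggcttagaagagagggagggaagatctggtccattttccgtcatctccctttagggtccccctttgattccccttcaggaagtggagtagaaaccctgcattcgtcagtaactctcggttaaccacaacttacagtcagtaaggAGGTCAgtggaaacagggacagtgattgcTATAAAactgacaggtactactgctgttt
The TATA box began 31 bases before the table's start in *Il17a* and 29 bases before it in *Il17f*. The HIF core ACGTG, searched on both strands and present in 16.6% of windows, was found in *Il21*, 136 bases before the start. The AP-1 element TGANTCA (6.75% of windows) was found in *Il17a* and *Il9*, and the NFAT core GGAAAA (20.4% of windows, both strands) in *Il17f*, *Il21* and *Il9*. None of the 7 windows held the STAT element TTCNNNGAA (7.02% of windows), and the *Csf2* and *Il3* windows held none of these letters. For *Csf2* the window lies before 54249899, whereas the GENCODE annotation starts this minus-strand gene further inside, at 54249667. Most of the bases just before that second start were therefore not searched. The CRE core TGACGT (6.47% of windows, both strands) was found in *Il17a*, and *Il22* held the TATA letters 170 bases before the table's start, a position inside its gene span, as 7.59% of windows held them somewhere. No matches overlapped. A match is a description of the sequence and not a measured binding site.

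All 9 cytokine genes differed between the genotypes, and they did not move in one direction. With RORγt N275D, 6 were higher (*Il17a*, *Il17f*, *Il22*, *Il10*, *Il24* and *Il3*) and 3 were lower (*Il21*, *Il9* and *Csf2*) at an adjusted p under 0.05 by limma. Of the 11908 genes tested, 50.9% were called at this threshold, 24.7% higher and 26.1% lower, so that a call of a given gene was common in these libraries. For none of the 9 genes did WT and N275D values overlap, which held for 57.7% of the genes tested (28.1% with N275D above WT and 29.6% below). *Il24* alone reached a 2-fold difference, which 3.59% of the genes tested did, 2.73% higher and 0.857% lower. Of those 427 genes 325 were higher, and under quantile normalization 232 of 378 were. The median log2 fold change of the 9 genes was 0.26, beside 0.00 for all genes tested (-0.002586 before rounding). Apart from *Il24* the changes were modest, between a fall of 35.7% for *Csf2* and a rise of 64.1% for *Il10*, on the scale of log2(normalized reads + 1) that was used for every test. Since the cultures were sequenced in bulk, fewer cells expressing a cytokine and less of its RNA per cell cannot be told apart.

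**Figure D1:**
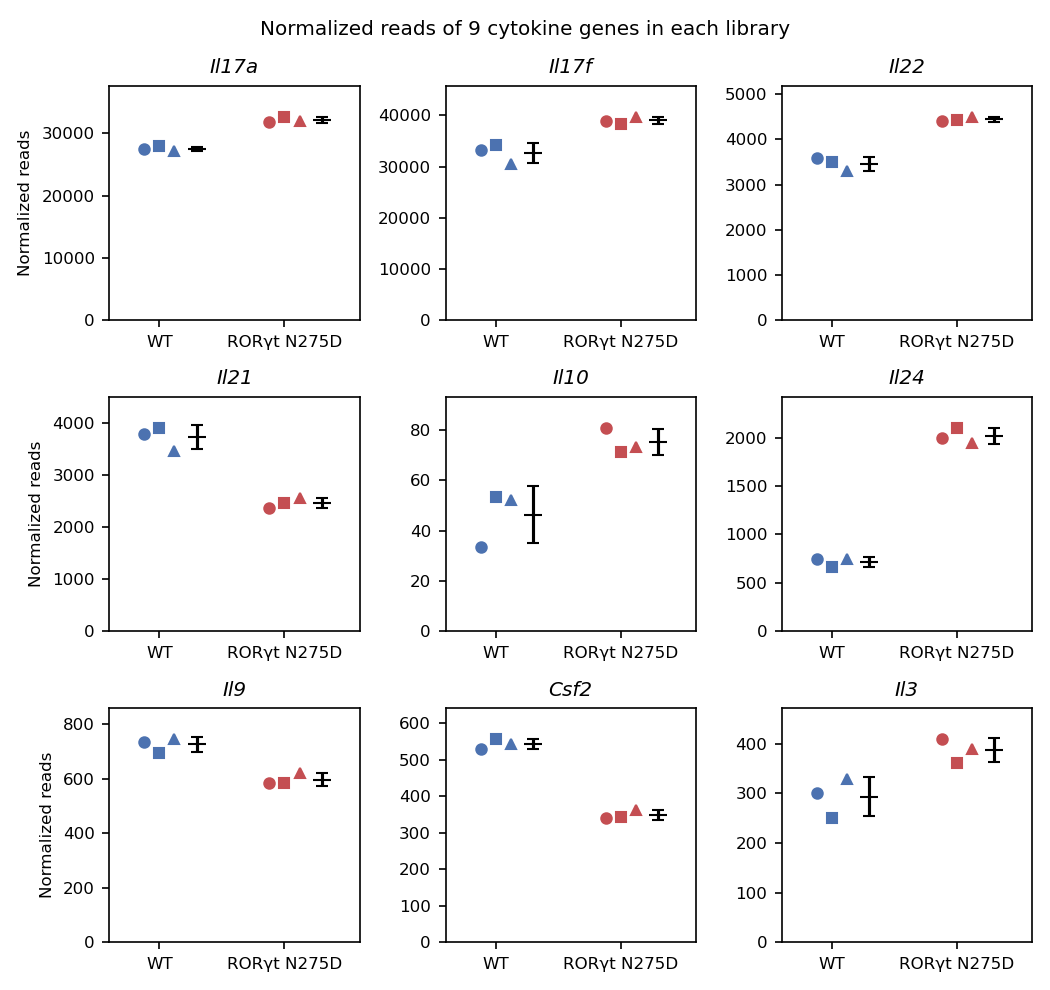
Normalized reads of each cytokine gene (y axes, linear and starting at 0) in the WT (blue) and RORγt N275D (red) libraries, with circles, squares and triangles for replicates 1, 2 and 3 and black bars for the mean ± SD of 3 libraries. *Il24* shows the widest separation, from at most 748 reads in WT to at least 1947 in N275D, and *Il21*, *Il9* and *Csf2* are the genes that are lower in N275D.

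**Figure D2:**
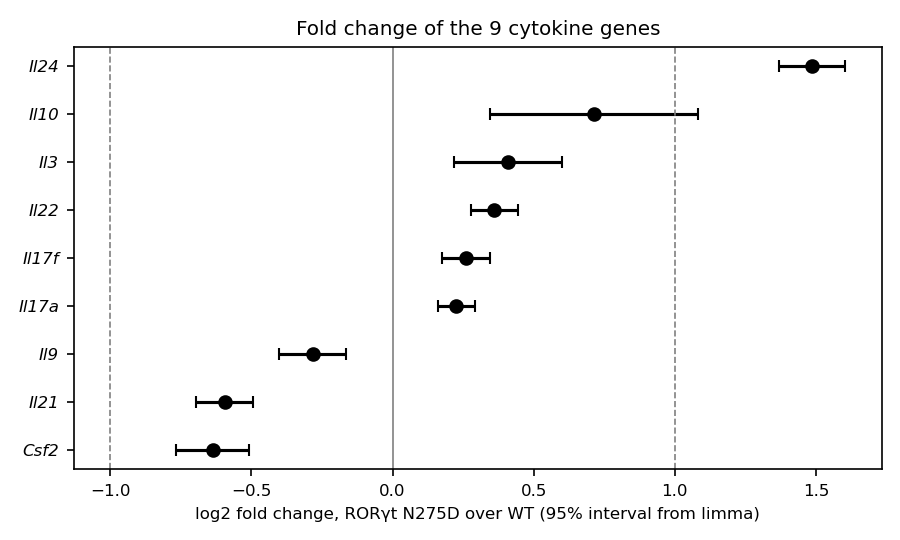
Log2 fold change of each cytokine gene in RORγt N275D over WT Th17 cells (x axis), with points for limma estimates, bars for their 95% intervals and dashed lines at 2-fold. The interval of *Il24*, 1.37 to 1.60, lies above the 2-fold line, that of *Il10* (0.35 to 1.08) crosses it, and no interval reaches 0.

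*Il17a* and *Il17f*, the founding pair of the lineage, lie 42649 bases apart on GRCm38 chromosome 1, at 20730905 to 20734496 and 20777146 to 20785274. *Il17a* had 27430, 27888 and 27166 normalized reads in the WT libraries and 31814, 32673 and 31970 in the N275D libraries. The lowest mutant library thus exceeded the highest WT library. Its mean rose from 27495 ± 365 to 32152 ± 458 (SD, n = 3 each), and it was the 35th most abundant of the 16244 genes. The log2 fold change was 0.23 (standard error, SE, 0.03, limma adjusted p = 1.56e-05), an increase of 16.9%. *Il17f* had 33276, 34198 and 30429 normalized reads in WT libraries and 38922, 38382 and 39773 in N275D libraries. WT replicate 3 was low for this gene, and the groups were separate with it. *Il17f* rose by 0.26 on the log2 scale (SE 0.04, limma adjusted p = 5.00e-05). It was 0.21 without WT replicate 3 and 0.16 under quantile normalization, the call being kept in both.

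Both genes rose by like amounts, 16.9% and 19.7%. For this and every later ratio, 1 was added to the normalized reads of both genes. The ratio of *Il17a* to *Il17f* reads was 0.824, 0.816 and 0.893 in WT libraries and 0.817, 0.851 and 0.804 in N275D libraries, so that the genotypes overlapped. On the log2 scale the ratio differed by -0.03 (standard error 0.05), with an exact two-sided permutation p of 0.6, and without WT replicate 3 the sign turned to 0.00704. Together these genes made up 0.332% ± 0.0136 of all normalized reads in WT and 0.402% ± 0.00327 in N275D libraries (SD, n = 3 each). They also held 86.3% ± 0.215 of the reads of the 9 cytokine genes in WT and 87.3% ± 0.0791 in N275D libraries (SD, n = 3 each).

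*Il22* and *Il21*, the other cytokines closely linked to the Th17 programme, moved in opposite directions. *Il22*, of the IL-10 family (chromosome 10, 118204584 to 118210047), had 3593, 3491 and 3293 normalized reads in WT libraries and 4401, 4415 and 4501 in N275D libraries. Every mutant library lay above every WT library, and the mutant libraries were close to each other. *Il22* rose by 0.36 on the log2 scale (SE 0.04, limma adjusted p = 1.79e-06), an increase of 28.4%. *Iltifb*, a near-identical copy of *Il22* that lies 79581 bases away, had means of 23.3 ± 2.73 normalized reads in WT and 10.6 ± 1.22 in N275D libraries (SD, n = 3 each) without overlap. Its log2 difference was -1.06 (SE 0.26, limma adjusted p = 0.00269). How the authors' counting divided reads between such copies is not given in the sources used here, so the *Iltifb* values and an unknown share of the *Il22* values are uncertain.

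*Il21*, which sustains Th17 cells and helps B cells (chromosome 3, 37222759 to 37232636), had 3797, 3912 and 3469 normalized reads in WT libraries and 2368, 2462 and 2561 in N275D libraries. The highest mutant library was well below the lowest WT library. It decreased from 3726 ± 230 to 2464 ± 96.4 (SD, n = 3 each), or by -0.60 on the log2 scale (SE 0.05, limma adjusted p = 4.51e-08). *Il21* stood 323rd when all tested genes were ordered from the lowest log2 fold change upwards.

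*Il24* and *Il10*, further members of the IL-10 family, had the largest increases among the 9 genes. *Il24*, whose protein signals through receptors that contain IL-20 receptor β and acts mainly on epithelial cells, lies on chromosome 1 from 130882074 to 130887411. It had 748, 661 and 748 normalized reads in WT libraries and 1992, 2103 and 1947 in N275D libraries. No WT library came near the mutant range. The mean rose from 719 ± 50.2 to 2014 ± 80.4 (SD, n = 3 each), 2.80-fold with a 95% interval of 2.58 to 3.04. On the log2 scale the rise of 1.49 (SE 0.06, limma adjusted p = 5.35e-12) stood 92nd when all tested genes were ordered from the highest log2 fold change downwards.

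*Il10* (chromosome 1, 131019845 to 131024970) was by far the scarcest of the 9 genes. It had 33.3, 53.5 and 52.1 normalized reads in WT libraries and 80.9, 71.2 and 73.1 in N275D libraries. WT replicate 1 lay below the other WT libraries, and all 3 lay below the mutant ones. *Il10* rose by 0.71 on the log2 scale (SE 0.17, limma adjusted p = 0.00276), with a 95% interval of 0.35 to 1.08, and it was 0.50 without WT replicate 1. Counting error alone gives an SD of about 0.185 on the log2 scale at this depth, against 0.375 observed in WT and 0.0955 in N275D libraries. Between *Il10* and *Il24* lie the family members *Il19* and *Il20*, which stayed near 0 in both genotypes. *Il19* had means of 0.655 and 1.99 normalized reads, and *Il20* was at 0 in every WT library with a mean of 0.333 in N275D libraries. With 1 added to both, the ratio of *Il24* to *Il10* reads was 21.8, 12.2 and 14.1 in WT libraries and 24.3, 29.1 and 26.3 in N275D libraries. The genotypes did not overlap in this ratio, by a narrow gap between WT replicate 1 and mutant replicate 1. On the log2 scale the ratio differed by 0.77 (standard error 0.26, exact two-sided permutation p = 0.1, the smallest possible). With a library left out this difference lay between 0.595 and 1.02.

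*Csf2* and *Il3* encode the haematopoietic growth factors GM-CSF and IL-3 and lie next to each other on chromosome 11, with 15185 bases between them. They are often described as co-expressed in activated T cells, and here they moved apart. *Csf2* (54247270 to 54249899) had 529, 558 and 542 normalized reads in WT libraries and 340, 342 and 363 in N275D libraries. Its 3 values within each genotype were tight and the genotypes were far apart. It decreased from 543 ± 14.5 to 349 ± 12.8 (SD, n = 3 each), or by -0.64 on the log2 scale (SE 0.06, limma adjusted p = 4.14e-07). *Il3* (54265085 to 54267279) had 301, 250 and 328 normalized reads in WT libraries and 410, 361 and 390 in N275D libraries. The gap between the highest WT and the lowest mutant library was narrow, 0.138 on the log2 scale. *Il3* rose by 0.41 on the log2 scale (SE 0.09, limma adjusted p = 0.00136), and it ranged from 0.30 without WT replicate 2 to 0.49 without WT replicate 3.

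The ratio of *Il3* to *Csf2* reads, with 1 added to both, was 0.570, 0.449 and 0.606 in WT libraries and 1.20, 1.06 and 1.07 in N275D libraries. Such a ratio depends on how a library was scaled only through the added 1. *Csf2* thus had more reads than *Il3* in each WT library and fewer in each N275D library. On the log2 scale the ratio differed by 1.05 (standard error 0.14). With 3 libraries against 3 the exact two-sided permutation test cannot give a p below 0.1, which is the value obtained here, or 0.125 after Benjamini-Hochberg adjustment over the 5 ratios examined. The next gene, *Acsl6*, an acyl-CoA synthetase 36525 bases from *Il3*, had means of 1448 ± 36.7 and 1789 ± 46.8 (SD, n = 3 each) and a log2 fold change of 0.31 (limma adjusted p = 2.64e-05).

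*Il9* encodes a mast cell and T cell growth factor made by Th9 cells and by some Th17 cells (chromosome 13, 56479277 to 56482257). It had 734, 695 and 747 normalized reads in WT libraries and 583, 583 and 622 in N275D libraries. All mutant libraries lay below all WT libraries. *Il9* changed by -0.28 on the log2 scale (SE 0.06, limma adjusted p = 0.000560), so that its level fell by 17.8%. Its spread within a genotype, 0.0537 and 0.0542 on the log2 scale, was close to the 0.0561 that counting error gives.

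Levels of the 9 transcripts were compared per kilobase, without a test. With the union of all annotated exons as the length, the WT order began with *Il17a* at 23480 ± 312 normalized reads per kilobase, *Il17f* at 16140 ± 972, *Il22* at 3116 ± 138 and *Il9*, whose libraries lay between 1297 and 1393 (SD, n = 3 each). It went on with *Il21* at 709 ± 43.7, *Csf2* at 679 ± 18.1, *Il24* at 519 ± 36.2, *Il3* at 466 ± 62.8 and *Il10* at 35.3 ± 8.59 normalized reads per kilobase (SD, n = 3 each). *Il17a* and *Il17f* stood well above the rest and *Il10* well below, while the WT libraries of *Il21* and *Csf2* overlapped, as did those of *Il24* and *Il3*. In N275D libraries *Il24* moved from the 7th to the 4th place, at 1453 ± 58.0 normalized reads per kilobase, above *Il9* at 1112 ± 42.3, *Il3* at 616 ± 39.3, *Il21* at 468 ± 18.3 and *Csf2* at 436 ± 16.0 (SD, n = 3 each). The N275D libraries of *Il21* and *Csf2* overlapped. With the mean length of the transcripts that the annotation pairs with RefSeq mRNAs, which is 1178 bases in place of 2022 for *Il17f* and 1800.5 in place of 5259 for *Il21*, *Il17f* came first in both genotypes, at 27703 ± 1668 in WT libraries, and *Il21* came before *Il9*, at 2070 ± 128 (SD, n = 3 each). The order of *Il17a* and *Il17f* therefore depends on the transcript model, a choice added after the data were seen, and the 4th place of *Il24* in N275D libraries was the same with both.

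**Figure D3:**
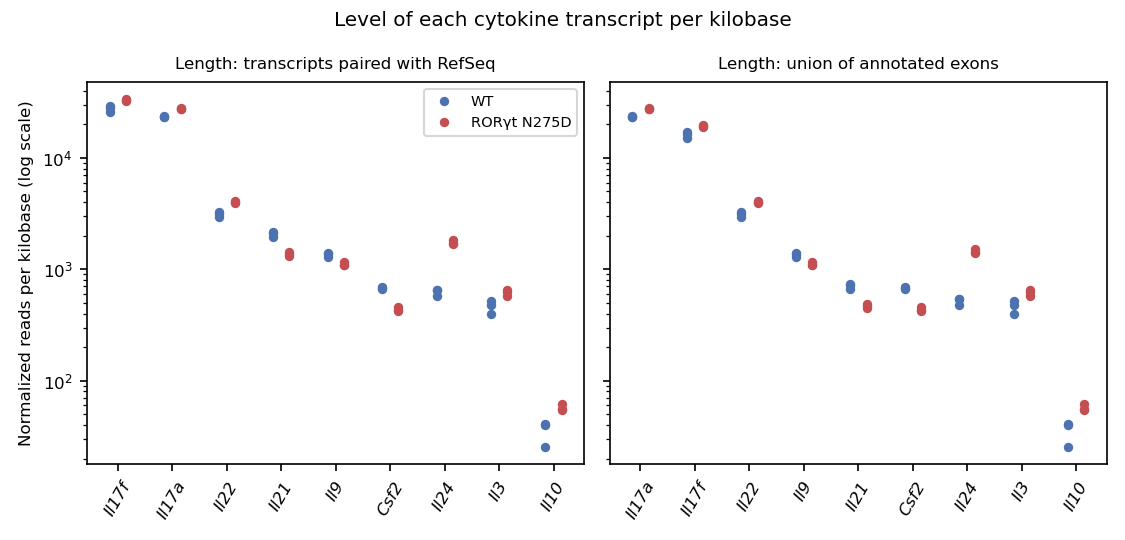
Normalized reads per kilobase (y axis, log scale) of each cytokine gene in the 3 WT (blue) and 3 RORγt N275D (red) libraries, with transcripts paired with RefSeq (left) or the union of annotated exons (right) as the length, and genes ordered by their WT mean. *Il24* stands in the 7th place in WT and rises to the 4th in N275D with both lengths.

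*Il21* and *Il22* each have another cytokine gene as a neighbour. *Il2*, the T cell growth factor gene 96804 bases from *Il21*, had 10101, 10626 and 10355 normalized reads in WT libraries and 2104, 2222 and 2100 in N275D libraries. It changed by -2.27 on the log2 scale (SE 0.04, limma adjusted p = 3.32e-16), so that both genes of this pair were lower in the mutant. *Il2* fell further than *Il21*, and the ratio of *Il21* to *Il2* reads was 0.376, 0.368 and 0.335 in WT libraries and 1.13, 1.11 and 1.22 in N275D libraries. The log2 ratio differed by 1.68 (standard error 0.07, exact two-sided permutation p = 0.1, the smallest possible). *Ifng*, the Th1 cytokine gene 230998 bases from *Il22*, had means of 87.6 ± 8.34 and 155 ± 21.2 normalized reads (SD, n = 3 each). With 1 added to both, the ratio of *Il22* to *Ifng* reads was 45.1, 38.9 and 34.2 in WT libraries and 24.5, 31.7 and 30.4 in N275D libraries. The groups did not overlap, and the log2 ratio differed by -0.45 (standard error 0.16, exact two-sided permutation p = 0.1, the smallest possible).

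**Figure D4:**
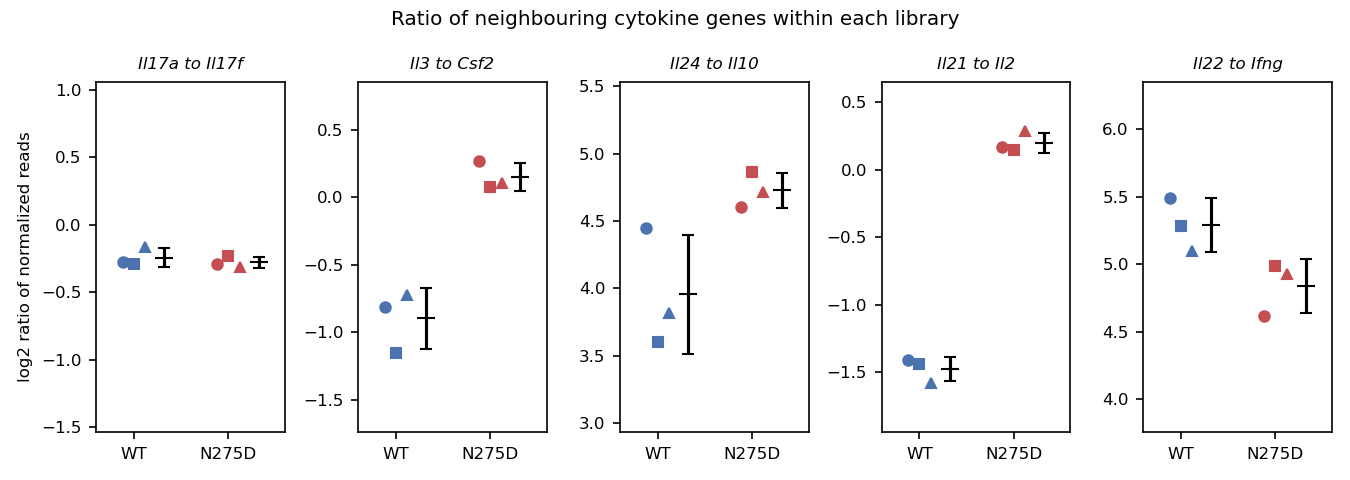
Log2 ratio of normalized reads for 5 pairs of neighbouring cytokine genes (y axes, each spanning the same range of the log2 scale) in WT (blue) and N275D (red) libraries, with circles, squares and triangles for replicates 1, 2 and 3 and black bars for the mean ± SD. Before each ratio, 1 was added to the reads of both genes. The genotypes overlap for *Il17a* to *Il17f* and are separate for the other 4 pairs, most widely for *Il21* to *Il2* (a difference of 1.68) and *Il3* to *Csf2* (1.05).

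Within 100 kb of the 9 genes RefSeq places 16 other protein-coding genes, of which 10 were tested. By limma 5 of them were called higher, 4 lower and 1 was not called, where 24.7% of all genes tested were called higher and 26.1% lower. *Mcm3*, a subunit of the replicative helicase 17691 bases from *Il17f*, was lower, with means of 9279 ± 138 and 7937 ± 151 normalized reads (SD, n = 3 each), while *Il17a* and *Il17f* were higher. *Fcmr*, the IgM Fc receptor gene 1283 bases from *Il24*, had 23.2, 18.2 and 20.6 normalized reads in WT libraries and 40.9, 37.1 and 34.6 in N275D libraries. Its log2 fold change of 0.83 (limma adjusted p = 0.00236) had the same direction as that of *Il24*. *Mapkapk2*, a stress-activated kinase gene 28729 bases from *Il10*, had a log2 fold change of 0.11 (limma adjusted p = 0.0267). *Fbxl21*, 40130 bases from *Il9*, was scarce, with means of 8.29 ± 3.88 and 16.9 ± 0.863 normalized reads (SD, n = 3 each) and a log2 fold change of 1.02 (limma adjusted p = 0.0168). *Bbs12* (0.20, adjusted p = 0.0365) was called higher and *Mdm1* (-0.20, adjusted p = 0.0442) lower by limma, and *Cetn4* was not called (0.13, limma adjusted p = 0.395). The values of *Mdm1* overlapped between the genotypes. Leaving out WT replicate 1 or N275D replicate 1 ended the calls of *Mapkapk2*, *Bbs12*, *Mdm1* and *Fbxl21*, and leaving out another library ended some of them.

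Among other cytokine genes that activated T cells can express, more were lower than higher. Of a list of 24, 20 were tested, and 6 were called higher and 10 lower, and the list's median was -0.14 on the log2 scale. The calls made up 80% of the list's tested genes, beside 50.9% of all genes tested (24.7% higher and 26.1% lower). The largest decreases beside *Il2* were those of *Il1a* (-1.60, limma adjusted p = 6.91e-09), from 187 ± 9.89 to 61.1 ± 5.05 normalized reads (SD, n = 3 each), and *Tnfsf14*, which encodes the co-stimulatory ligand LIGHT (-1.17, limma adjusted p = 2.35e-10). The largest increases were those of *Ifng* (0.81), *Tgfb3* (0.69) and *Il16* (0.54), with adjusted p of 3.54e-05, 0.0208 and 2.54e-07 from limma. The number called higher was 3 without WT replicate 1, without N275D replicate 1 or without N275D replicate 3, and *Tgfb3* was among the calls lost each time. Of 7 further members of the IL-17 and IL-10 families, *Iltifb* was the 1 that passed the filter.

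Receptor chains for the 9 cytokines were often scarce and moved both ways. Of 15 chains, 11 were tested, 6 were called higher and 2 lower, and the median log2 fold change was 0.38. The calls made up 72.7% of the tested chains, beside 50.9% of all genes tested. Among chains with a mean of at least 100 normalized reads, 1 was called higher and 2 lower, so that the excess of higher calls came from the scarce chains. The largest increase was that of *Csf2rb*, the shared β chain of the GM-CSF, IL-3 and IL-5 receptors, which had 9.08, 15.1 and 9.82 normalized reads in WT libraries and 36.9, 37.1 and 31.6 in N275D libraries. It rose by 1.58 on the log2 scale (SE 0.25, limma adjusted p = 6.88e-05). *Csf2rb2*, the closely similar chain used for IL-3, went the same way (0.97, limma adjusted p = 0.000374), and reads may have been shared between these copies. The α chains of the same receptors, *Csf2ra* (0.11) and *Il3ra* (0.12), were not called (adjusted p = 0.325 and 0.266 from limma). *Il10ra*, the ligand-binding chain of the IL-10 receptor, had 59.6, 61.5 and 56.0 normalized reads in WT and 143, 133 and 127 in N275D libraries, a log2 fold change of 1.17 (limma adjusted p = 4.32e-07). *Il9r* rose from 30.7 ± 6.39 to 65.1 ± 12.4 (SD, n = 3 each; log2 fold change 1.06, limma adjusted p = 0.000216). *Il2rg*, the common γ chain of the IL-21 and IL-9 receptors among others, fell (-0.22, limma adjusted p = 0.000125). *Il21r* (-0.10, limma adjusted p = 0.0406) was also called lower, a call that was lost in 10 of 15 alternatives, among them the fits without WT replicate 3 and without each of the N275D replicates.

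Transcription factors that act on these cytokine genes also moved both ways. Of 22 listed, 21 were tested, 11 were called higher and 9 lower, and the list's median was 0.11 on the log2 scale. The calls made up 95.2% of the tested factors, beside 50.9% of all genes tested. *Hif1a* (0.78, adjusted p = 4.00e-10), *Etv5* (0.68, adjusted p = 7.99e-06) and *Gata3* (0.59, adjusted p = 0.000193) had the largest increases by limma. *Nfatc1*, a calcium-dependent activator of cytokine genes (-1.07, adjusted p = 2.64e-11), and the AP-1 family members *Junb* (-0.55, adjusted p = 1.59e-09) and *Batf* (-0.51, adjusted p = 1.17e-06) had the largest decreases by limma. *Nfatc1* had 3189, 3399 and 3590 normalized reads in WT libraries and 1648, 1611 and 1570 in N275D libraries.

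**Figure D5:**
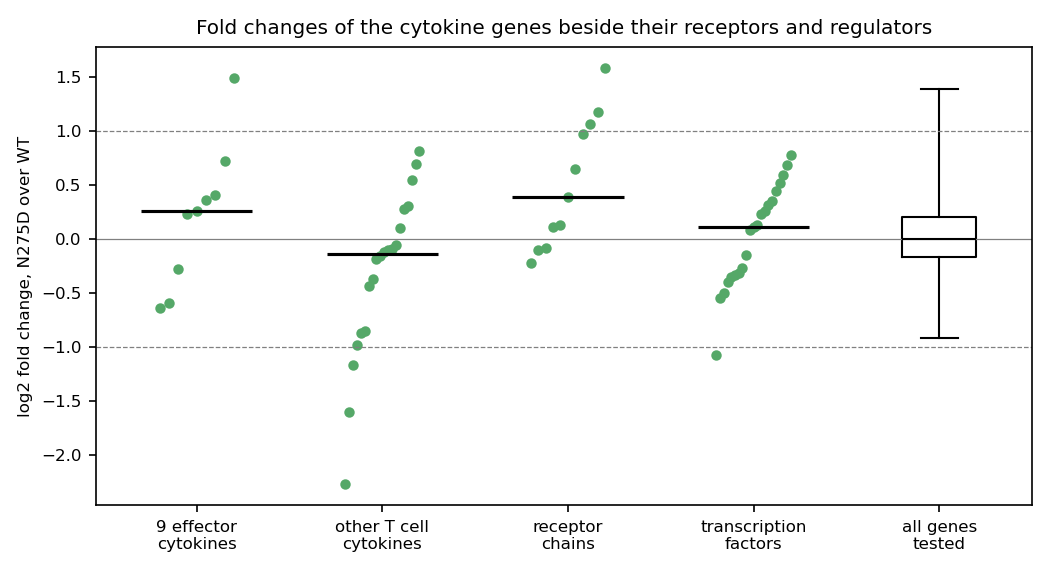
Log2 fold change in RORγt N275D over WT (y axis) of the 9 effector cytokine genes, other T cell cytokines, receptor chains and transcription factors, with 1 point per tested gene and a line at each median. The box gives the quartiles of all 11908 genes tested with whiskers at the 1st and 99th percentiles, and dashed lines mark 2-fold. The medians are 0.26, -0.14, 0.38 and 0.11 from left to right.

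For 8 of the 9 genes, the gene with the most similar profile was found as the one with the smallest root mean square distance between log2 values, centred on the mean over the 6 libraries. For *Il24* it was *Sema4f*, at a distance of 0.0424, and 12 of 11814 protein-coding genes lay within 0.1. *Csf2* was nearest to *Gtse1* (0.0283), *Il21* to *Naf1* (0.0279) and *Il3* to *Wdr54* (0.0444), with between 94 and 149 genes within 0.1. The profiles of *Il17a* (*Aff1*, 0.00940), *Il17f* (*Ubxn7*, 0.0144), *Il22* (*Sars*, 0.0165) and *Il9* (*Tut1*, 0.0192) were common, with between 1133 and 2275 genes that close. Genes chosen by this distance must have log2 fold changes of like size, such as 1.46 for *Sema4f* beside 1.49 for *Il24*. That likeness follows from the choice and is no separate result.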

How the data were processed

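RNA-seq was analysed from 3 WT and 3 N275D Th17 libraries, grouped and numbered by their titles. According to the methods, the authors trimmed paired reads, aligned them to mm10 with STAR and counted them per gene with featureCounts, with versions and the handling of shared reads not given in the sources used here. The deposited signal values, named normalized read counts by the authors, are reads multiplied by 1 factor per library: 100% of nonzero values in each library were whole multiples of it within 1e-06. The deposited table also holds the authors' log2 fold changes, q-values and group averages, which were not used.

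Values were tested on the scale of log2(normalized reads + 1) with limma 3.58.1 (R 4.3.3, trended prior, no block) for 11908 genes whose mean over all libraries reached 10, and p-values were adjusted over all of them by the Benjamini-Hochberg method. The 9 genes, the lists and the tests were chosen with earlier results of these data known. Genes named outside the 9 were the 3 largest increases and decreases called per list, tested flanking genes and the nearest profile of each; 1 gene that this rule names is not reported here. *Csf2ra*, *Il3ra*, *Csf2rb2*, *Il19* and *Il20* were named beside that rule after their values were seen, as were single cell type markers. Positions are from RefSeq GRCm38.p6, the build mm10, and 16135 of 16244 gene numbers matched; exonic lengths are from GENCODE M21. Replicate pairs differed beyond counting noise (median chi-square 1.32 to 3.05 times its expectation). The script was tested on simulated data. Alternatives are given in the closing section. The planned count models on recovered reads were not run.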

Additional observations from a re-analysis of the deposited data

How the results depend on the processing

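Each of the 9 cytokine genes kept its direction and its call in every one of the 134 alternative fits that gave it a value (*Il10* was left out by a minimum mean of 100), with the highest adjusted p of 0.0256 for *Il3* in eBayes without a trend. The counts of 6 higher, 3 lower and 1 at 2-fold held in all 15 alternatives, apart from *Il10* under that minimum. The number of all genes called at 2-fold was 427, and it was 259 with a pseudocount of 10, 703 with all genes of mean above 0, which tests 16244 genes, and 162 with a minimum mean of 100, which tests 9581. Under quantile normalization 61.4% of the genes called at 2-fold were higher, against 76.1%. Of the receptor chains, 1 was called higher and 2 lower with a minimum mean of 100, which tests fewer of them, against 6 and 2. The chains called lower were 1 in place of 2 with a mean above 0, TMM scaling, quantile normalization, eBayes without a trend, library weights and the replicate block, and 1 to 2 with a library left out. The other cytokines called higher numbered 3 to 5 with a library left out. The *Il17a* to *Il17f* ratio difference lay between -0.0583 and 0.00704 with a library left out, the positive value being without WT replicate 3. The cause of these shifts was not tested beyond the number of genes.

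The deviations of same-numbered WT and N275D libraries correlated at -0.0455, 0.0407 and -0.0828, so no shared deviation by replicate number was visible. Whether same-numbered samples were paired in the experiment is not given in the labels, and these correlations cannot decide it. With the replicate number as a block, 5727 genes were called in place of 6056, and the adjusted p of *Il17a* was 4.11e-05, that of *Il10* 0.00192 and that of *Il3* 0.000277. Of the 9 genes *Il10* had the fewest reads, and *Iltifb*, *Csf2rb* and *Fbxl21* had fewer still. Count models on recovered reads were not run, so no count-based test stands beside limma.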
